A study of Mus musculus with 12 samples.

Results

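The data described here are the mRNA levels of 10 genes for inhibitory and paired immune receptors in mouse bone-marrow-derived macrophages (BMDMs). The genes were taken by symbol from the table of 55487 gene models: Siglec1, Siglece, Cd33, Lilrb4a, Pilra, Pilrb1, Sirpa, Cd47, Cd300a and Trem2. RNA-seq of poly(A) RNA was performed on 12 libraries in 4 groups of 3, made from BMDMs of C57BL/6 mice aged 8 to 12 weeks. The wild-type (WT) mice came from an animal facility, and the knock-out (KO) mice had the genotype Rasgef1b-fl/fl;CMVcre, in which Cre under the ubiquitously active CMV promoter removes a loxP-flanked pair of exons of Rasgef1b in all tissues and shifts the reading frame ahead of the catalytic domain. KO macrophages therefore differed from WT in the floxed allele, in the Cre transgene and possibly in the source of the mice, and these cannot be told apart here. All cultures were grown in medium conditioned by L929 cells, and cells of each genotype were left untreated or given lipopolysaccharide (LPS) at 100 ng/ml for 4 h. LPS, the ligand of the receptor TLR4, comes from the outer membrane of Gram-negative bacteria.

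Receptors of this kind tune how strongly a myeloid cell answers a stimulus. Inhibitory members carry immunoreceptor tyrosine-based inhibitory motifs (ITIMs) in the cytoplasmic tail, which recruit the phosphatases SHP-1, SHP-2 or SHIP-1 after phosphorylation by Src-family kinases. Paired activating members have a similar extracellular part but a short tail, and signal through adaptors such as DAP12, which bind the kinase Syk. Many of the ligands are markers of self: sialic acid-bearing glycans for Siglecs and PILRs, and CD47 for SIRPα, an interaction known as a brake on phagocytosis.

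The libraries held 19316691 to 24977356 reads in genes (median 20552126), and values are given as normalized counts, that is reads divided by a size factor of the library. A single read stood for 0.66 to 0.855 normalized counts without LPS and for 1.21 to 1.41 with it. Rasgef1b, the targeted gene, was at 2072 ± 88.2 normalized counts in untreated WT and 609 ± 77.4 in untreated KO BMDMs, and at 12084 ± 407 and 3862 ± 297 after LPS (SD, n = 3). These counts cover the whole gene, with exons outside the deleted pair, so they do not measure intact transcript alone. By RT-qPCR the paper reported Rasgef1b mRNA as not detected in KO BMDMs. All 8 macrophage markers (among them Adgre1, Itgam and Csf1r) were detected in every group, with a summed level of 214395 to 364637 normalized counts per library. The summed levels of 8 other cell type lists reached at most 756 normalized counts in a library, for neutrophil genes. Of the 5 T cell genes only Cd3d was at 0 in all libraries. That list summed to 83.5 to 245 normalized counts per library, nearly all from Cd4. The RNA came from whole cultures, so fewer cells of a type and less RNA per cell cannot be told apart.

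Levels of different genes were compared per kilobase of annotated exon. In untreated WT macrophages Sirpa stood highest, at 8499 ± 112 normalized counts per kilobase (SD, n = 3), followed by Trem2 at 2155 ± 79.0 and Lilrb4a at 1910.2 ± 26.2. Siglec1, Cd300a and Cd47 formed a middle group, at 841 ± 298, 650.2 ± 36.6 and 625 ± 27.7 normalized counts per kilobase, and neighbours within it overlapped in range over libraries. Cd33 and Pilra also overlapped, at 69.9 ± 8.59 and 68.4 ± 9.07 normalized counts per kilobase. Pilrb1, at 10.4 ± 0.909, and Siglece, at 3.42 ± 1.50, were the lowest. After LPS the order in WT macrophages was Sirpa, Cd47, Lilrb4a, Trem2, Siglec1, Pilra, Cd300a, Cd33, Pilrb1 and Siglece, and among neighbours only Cd47 and Lilrb4a overlapped. KO macrophages had the same order as WT after LPS. In untreated KO macrophages Siglec1 stood after Cd300a and Cd47, with a range that overlapped that of Cd47, and Lilrb4a overlapped with Trem2. The order depended on the length used. Per kilobase of coding sequence, Cd47 stood above Sirpa in LPS-treated WT macrophages, at 15706 against 15241 normalized counts per kilobase, with overlapping ranges. Per kilobase of the longest transcript, Lilrb4a stood above Trem2 in untreated WT macrophages, at 2649 against 2228 normalized counts per kilobase, without overlap.

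**Figure D1:**
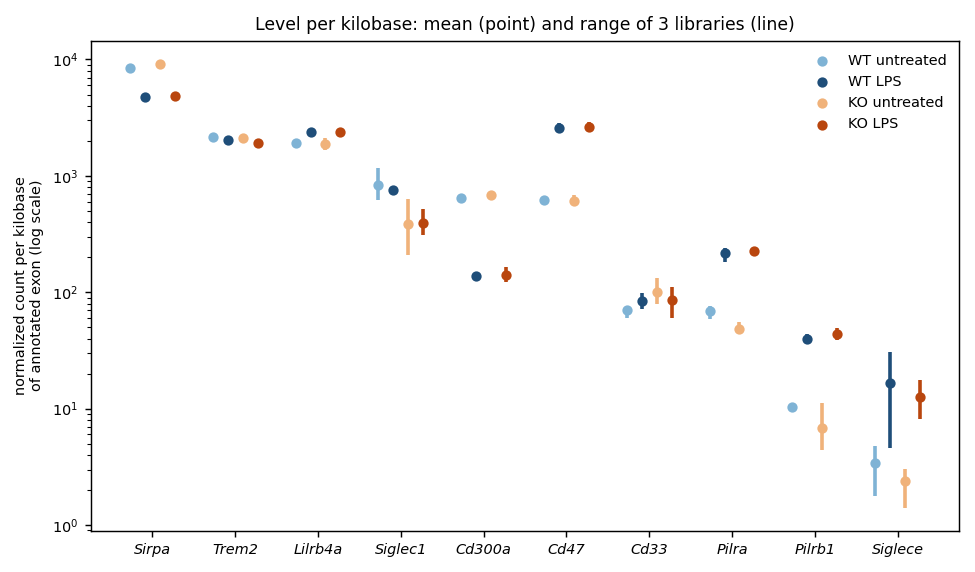
Normalized count per kilobase of annotated exon (y axis, log scale) for the 10 receptor genes (x axis, ordered as in untreated WT macrophages) in the 4 groups. Points are means and lines span the lowest and highest of 3 libraries; Cd47 moves from 625 in untreated to 2588 in LPS-treated WT macrophages and Cd300a from 650.2 to 138.

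LPS was associated with changes in 5 of the 10 genes in WT macrophages and in the same 5 in KO macrophages, by limma on log2(normalized count + 1) with a Benjamini-Hochberg adjusted p under 0.05 and a difference of at least 1 on the log2 scale. Cd47, Pilra, Pilrb1 and Siglece rose and Cd300a fell in both genotypes. Siglece reached the mean of 10 needed for testing only through its LPS-treated libraries, so its rise is not independent of that filter. The counts of 4 higher genes below include it. In WT, 17.1% of the 12656 genes tested passed both thresholds as higher and 16.9% as lower, against 4 and 1 of the 10 receptor genes. In KO the shares were 17.3% higher and 16.6% lower of 12732 genes, against 4 and 1 of 10. By adjusted p alone, 5 receptor genes were higher and 2 lower in each genotype, beside 36.7% and 36.6% of all genes in WT and 36.3% and 35.7% in KO. The median difference of the 10 genes was 0.29 in WT and 0.25 in KO on the log2 scale, beside -0.017 and -0.013 over all genes tested. The deposited values sum to 16361938 to 17384975 per untreated library and to 25980274 to 28238994 per LPS-treated library, so levels against the total of reads differ from these values: with the total of reads as the scale, the median of all genes moved to -0.74 in WT and -0.69 in KO. The split of 2158 higher and 2136 lower genes in WT became 1379 and 4783 with total scaling and 1732 and 3017 with upper quartile scaling, which moved the median to -0.33; in KO the split of 2201 and 2108 became 1447 and 4621, or 1799 and 3013.

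**Figure D2:**
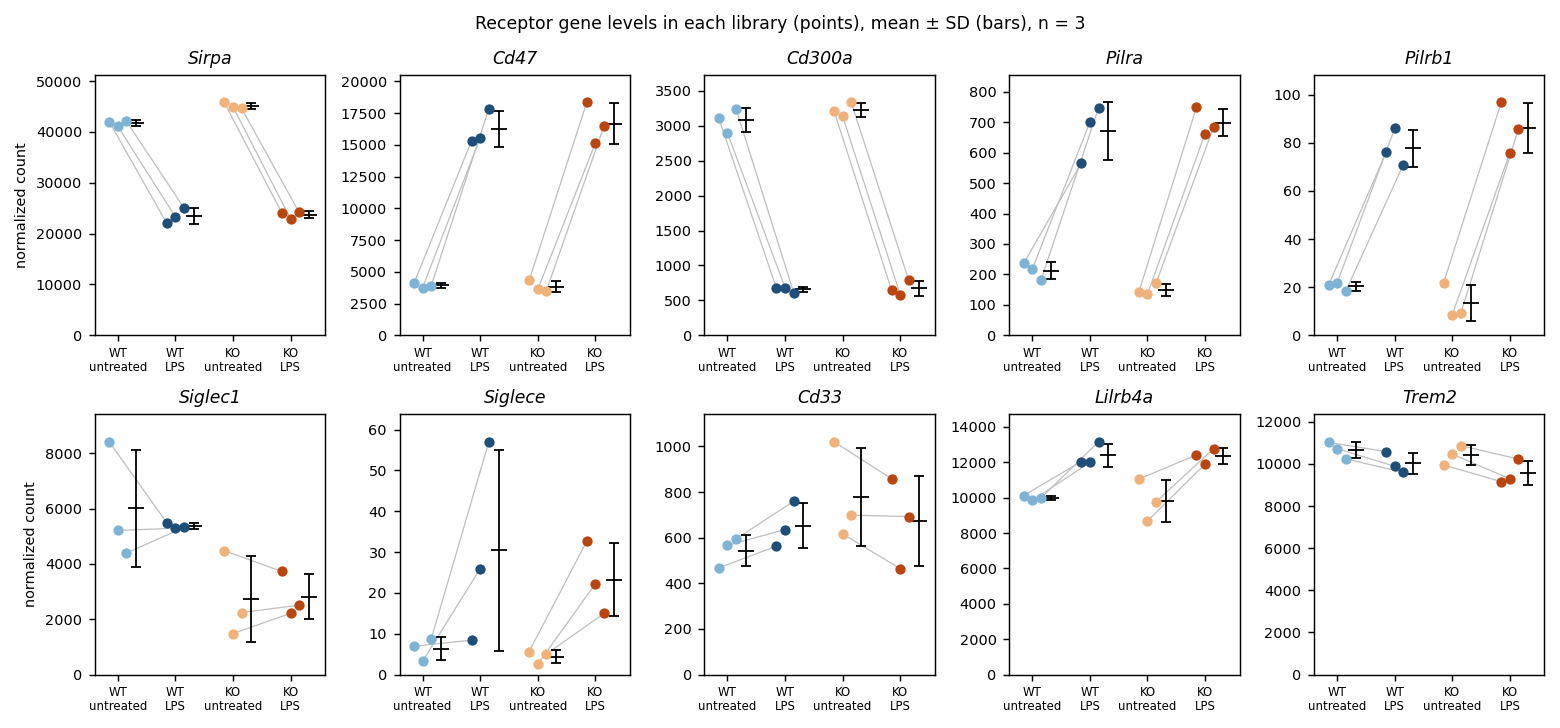
Normalized counts (y axis, linear from 0, a scale per gene) of the 10 receptor genes in each of the 12 libraries; points are libraries, grey lines join untreated and LPS-treated libraries of the same number, and bars give mean ± SD of 3. Cd47, Pilra and Pilrb1 are higher in every LPS-treated library than in every untreated library of the same genotype, Cd300a and Sirpa are lower, and Siglec1 is spread widely among untreated libraries.

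Sirpa and Cd47 encode the 2 sides of the phagocytosis brake: SIRPα, an ITIM receptor abundant on macrophages, and its ligand CD47, present on most cells. Sirpa (ENSMUSG00000037902, chr2:129592835-129632228, + strand of GRCm38, as all positions here) was at 42037, 41105 and 42079 normalized counts in untreated WT libraries and at 22037, 23301 and 25028 after LPS. In KO libraries it was at 45794, 44979 and 44631 untreated and 24044, 22909 and 24169 after LPS. Every LPS-treated library lay below every untreated one in both genotypes. The difference was -0.83 (SE 0.065) in WT (adjusted p = 2.37e-06, limma) and -0.93 (SE 0.076) in KO (adjusted p = 6.63e-06) on the log2 scale, or 1.78- and 1.90-fold lower, which did not reach the fold threshold. With upper quartile scaling, quantile normalization or total scaling, it reached that threshold as lower in both genotypes.

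Cd47 (ENSMUSG00000055447, chr16:49800533-49915010, + strand) went the other way. It was at 4104, 3758 and 3910.3 normalized counts in untreated WT libraries and at 15317, 15558 and 17846 after LPS. The KO libraries held 4322, 3606 and 3519 untreated and 18343, 15144 and 16479 after LPS. The groups were far apart, with the lowest LPS-treated library over 3 times the highest untreated one. Cd47 rose by 2.05 (SE 0.070) on the log2 scale in WT (adjusted p = 8.95e-09, limma) and by 2.13 (SE 0.10) in KO (adjusted p = 2.14e-07), which is 4.13- and 4.37-fold. Per kilobase of exon the mean normalized counts were 4776 ± 306 for Sirpa and 2588 ± 222 for Cd47 in LPS-treated WT macrophages.

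Cd300a (ENSMUSG00000034652, chr11:114890041-114904654, + strand) encodes an ITIM receptor for phosphatidylserine and phosphatidylethanolamine, lipids exposed on dying cells. It had the largest difference of the 10 genes in WT. Untreated WT libraries held 3107, 2896 and 3239.6 normalized counts and LPS-treated ones 677, 681 and 611. In KO, untreated libraries held 3216, 3137 and 3334 and LPS-treated ones 646, 583 and 785. No LPS-treated library came near an untreated one. The fall was -2.23 (SE 0.068) on the log2 scale in WT (adjusted p = 4.37e-09, limma) and -2.27 (SE 0.10) in KO (adjusted p = 1.60e-07), that is 4.69- and 4.84-fold. Of its longest transcript, 0.902% of 100-base windows also occur in Cd300c2.

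To show the start regions of the genes with the largest LPS difference in each direction in WT, the 250 bases before the transcription start of Cd300a (chr11:114889791-114890040) and Cd47 (chr16:49855404-49855653) are given from RefSeq (GRCm38.p6), 5′ to 3′ on the + strand, with matches to 5 short motifs in capitals. The motifs, searched on both strands, were GAAANNGAA (core of the interferon-stimulated response element), GGGANNTTC (NF-κB core), TTCNNNGAA (the STAT site GAS), GAGGAA (PU.1 core) and TGANTCA (AP-1), found in 7.13%, 3.23%, 7.02%, 23.3% and 6.75% of 32851 promoters. The windows of these motifs can overlap. The Cd47 window lies inside the gene span given above, which begins further upstream, so it shows the RefSeq start and not the outermost annotated start.
Cd300a: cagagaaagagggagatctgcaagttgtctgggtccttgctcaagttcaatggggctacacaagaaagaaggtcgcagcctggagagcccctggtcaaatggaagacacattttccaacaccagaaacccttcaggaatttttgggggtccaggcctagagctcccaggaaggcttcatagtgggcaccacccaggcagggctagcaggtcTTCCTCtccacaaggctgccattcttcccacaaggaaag
Cd47: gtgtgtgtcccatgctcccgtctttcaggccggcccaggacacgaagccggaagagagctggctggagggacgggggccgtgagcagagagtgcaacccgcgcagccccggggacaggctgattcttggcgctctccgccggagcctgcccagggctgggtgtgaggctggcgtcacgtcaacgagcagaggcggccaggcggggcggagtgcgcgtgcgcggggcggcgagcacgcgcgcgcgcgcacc
The Cd300a window holds 1 match, a PU.1 core on the - strand 39 bases before the start, and the Cd47 window holds none of the 5.

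Pilra and Pilrb1 are neighbours on the - strand of chromosome 5 and form a pair: PILRα is an ITIM receptor and PILRβ its DAP12-coupled activating counterpart, both binding sialylated O-glycans. Pilra (ENSMUSG00000046245, chr5:137821952-137836281) was at 236, 217 and 181 normalized counts in untreated WT libraries and 566, 700.1 and 747 after LPS. In KO it was at 141, 135 and 172 untreated and 749, 663 and 685 after LPS. The groups did not overlap between treatments. Pilra rose by 1.66 (SE 0.13) in WT (adjusted p = 2.71e-06, limma) and 2.22 (SE 0.11) in KO (adjusted p = 2.86e-07) on the log2 scale, which is 3.16- and 4.67-fold. With total scaling the WT difference was 0.94 and fell short of the fold threshold.

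Pilrb1 (ENSMUSG00000066684, chr5:137852147-137858106) had far fewer reads. It was at 20.8, 21.8 and 18.3 normalized counts in untreated WT libraries and 76.0, 86.0 and 70.9 after LPS. In KO it was at 21.9, 8.55 and 9.31 untreated and 96.8, 75.8 and 85.7 after LPS. One untreated KO library lay at the level of untreated WT and the other 2 under 10, and all LPS-treated libraries were above 70. Pilrb1 rose by 1.88 (SE 0.19) in WT (adjusted p = 1.31e-05, limma) and 2.73 (SE 0.34) in KO (adjusted p = 1.03e-04) on the log2 scale, 3.69- and 6.61-fold. Of the 100-base windows in its longest transcript, 4.63% occur in another gene, mainly Pilrb2, and 0.887% of those of Pilra occur in Pilrb1. Pilra also shares 468 exon bases with Zcwpw1 on the opposite strand, 15.1% of its exon length, and the strand setting of the counting is not given in the sources used here.

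The start regions of both PILR genes are shown because they are alike and both genes rose with LPS. They are given 5′ to 3′ on the - strand, from RefSeq (GRCm38.p6), for chr5:137836279-137836528 and chr5:137858050-137858299, with the motifs named above in capitals.
Pilra: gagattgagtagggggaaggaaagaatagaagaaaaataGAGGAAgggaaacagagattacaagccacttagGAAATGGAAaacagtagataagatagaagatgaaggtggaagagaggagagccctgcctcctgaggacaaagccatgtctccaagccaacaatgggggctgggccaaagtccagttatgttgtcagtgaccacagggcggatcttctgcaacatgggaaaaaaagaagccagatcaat
Pilrb1: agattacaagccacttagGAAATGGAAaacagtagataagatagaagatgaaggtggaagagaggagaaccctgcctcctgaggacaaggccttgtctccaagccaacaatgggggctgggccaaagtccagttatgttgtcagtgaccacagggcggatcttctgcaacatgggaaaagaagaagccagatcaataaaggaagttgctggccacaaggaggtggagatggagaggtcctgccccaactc
When shifted by 54 bases, the windows match at 192 of 196 positions (98.0%), with a longest identical run of 86 bases. Both hold 1 match to the interferon-stimulated response element core, 178 bases before the start of Pilra and 232 bases before that of Pilrb1, inside the shared stretch, and Pilra holds a PU.1 core in addition. The starts are those of RefSeq. Both windows reach into the gene spans given above, that of Pilrb1 further, so the distances depend on the start used.

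Of the 3 Siglecs, which bind sialic acids, Siglec1 (CD169, sialoadhesin) has no ITIM and serves adhesion and capture of particles, while Siglec-E and CD33 (Siglec-3) carry ITIM-like tail motifs. Siglec1 (ENSMUSG00000027322, chr2:131069220-131086765, - strand) was at 8415, 5208 and 4394 normalized counts in untreated WT libraries and 5492, 5289 and 5317 after LPS. KO libraries held 4478, 1481 and 2240.5 untreated and 3725, 2212 and 2509 after LPS. The untreated libraries were spread widely, with replicate 1 the highest in both genotypes, and treatments overlapped. The LPS difference was -0.11 (SE 0.19) in WT (adjusted p = 0.636, limma) and 0.16 (SE 0.36) in KO (adjusted p = 0.707) on the log2 scale, with 95% confidence intervals of -0.54 to 0.33 and -0.67 to 0.98. The scaling changed the WT value: it was -0.99 (adjusted p = 0.00152, limma) with quantile normalization and -0.83 (adjusted p = 0.00197) with total scaling, short of the fold threshold in both.

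Siglece (ENSMUSG00000030474, chr7:43651070-43660161, - strand) had the fewest reads of the 10 genes. Untreated WT libraries held 6.92, 3.30 and 8.76 normalized counts and LPS-treated ones 8.44, 25.9 and 57.0, from 10, 5 and 11 and 6, 19 and 41 reads. Untreated KO libraries held 5.64, 2.57 and 5.01 and LPS-treated ones 32.7, 22.2 and 14.97 normalized counts. In WT, LPS-treated replicate 1 lay among the untreated libraries, whereas KO groups did not overlap. All untreated libraries were under the mean of 10 needed for testing, so the gene was tested only because of its LPS-treated libraries. Siglece rose by 1.82 (SE 0.63) on the log2 scale in WT (adjusted p = 0.0251, limma) and 2.15 (SE 0.42) in KO (adjusted p = 0.00159). The WT call was lost without WT untreated replicate 2 (1.48, adjusted p = 0.0846), without WT LPS replicate 2 (1.76, adjusted p = 0.0696) or replicate 3 (1.20, adjusted p = 0.0883), with a variance without trend (adjusted p = 0.0565) and with total scaling (1.17, adjusted p = 0.0956), in limma fits throughout.

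Cd33 (ENSMUSG00000004609, chr7:43524216-43544428, - strand) was at 468, 566 and 595 normalized counts in untreated WT libraries and 563, 636 and 759.5 after LPS. In KO it was at 1021, 617 and 699 untreated and 859, 464 and 693 after LPS. Each WT library was higher after LPS than the untreated library of its number, and each KO library was lower, but groups overlapped throughout. Neither difference passed the test, at 0.26 (SE 0.13) in WT (adjusted p = 0.0868, limma) and -0.22 (SE 0.24) in KO (adjusted p = 0.426) on the log2 scale. With the replicate number as a block, the same differences had an adjusted p of 0.00812 in WT and 0.0383 in KO by limma, in opposite directions and short of the fold threshold. With total scaling they were -0.46 (adjusted p = 0.00477, limma) and -0.91 (adjusted p = 0.00492), lower in both genotypes.

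Lilrb4a (ENSMUSG00000112148, chr10:51490956-51496611, + strand) encodes gp49B, an ITIM receptor of the leukocyte immunoglobulin-like family. It was at 10124, 9849.9 and 9980.0 normalized counts in untreated WT libraries and 12044, 11994 and 13164 after LPS. KO libraries held 11051, 8682 and 9767 untreated and 12423, 11905 and 12778 after LPS. The LPS-treated libraries were all above the untreated ones. The differences, 0.31 (SE 0.056) in WT (adjusted p = 7.12e-04, limma) and 0.34 (SE 0.092) in KO (adjusted p = 0.00972) on the log2 scale, passed the adjusted p but not the fold threshold, and turned negative with quantile normalization (-0.69 and -0.63), with total scaling (-0.41 and -0.35) and, in WT, with upper quartile scaling. Of its 100-base windows 29.0% also occur in another gene, mainly Gm49339, which shares 1846 exon bases with it (35.3% of its exon length), or Lilr4b. Reads from these stretches could have been left uncounted or assigned to another gene, which would make its level too low. How such reads were counted is not given in the sources used here.

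Trem2 (ENSMUSG00000023992, chr17:48346401-48354147, + strand), the DAP12-coupled receptor for lipids and apolipoproteins, was at 11016, 10719.9 and 10241 normalized counts in untreated WT libraries and 10585, 9885 and 9592 after LPS. KO libraries held 9949.8, 10462 and 10869 untreated and 9157, 9293 and 10226 after LPS. Each library was lower after LPS than the untreated library of its number, within overlapping groups. The differences did not pass the test, at -0.090 (SE 0.058) in WT (adjusted p = 0.19, limma) and -0.13 (SE 0.071) in KO (adjusted p = 0.14) on the log2 scale, with 95% confidence intervals of -0.22 to 0.042 and -0.29 to 0.036. With quantile normalization they were -1.11 in both genotypes and passed both thresholds. They passed the adjusted p alone with total scaling, at -0.82 in WT and -0.81 in KO, with upper quartile scaling, at -0.41 and -0.44, and, in KO, with the replicate number as a block (adjusted p = 0.0392, limma).

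**Figure D3:**
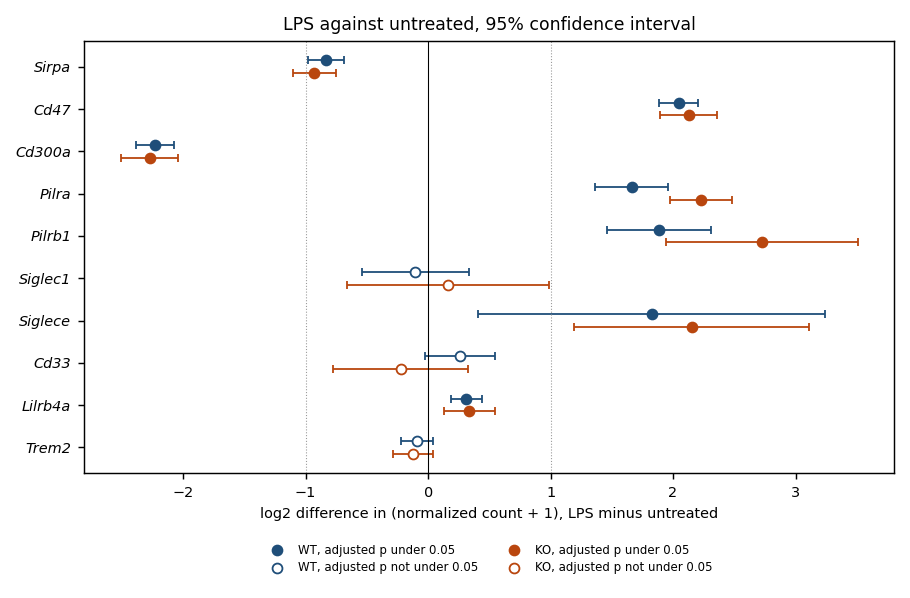
Difference between LPS-treated and untreated libraries on the log2(normalized count + 1) scale (x axis) for the 10 receptor genes in WT and KO macrophages, with 95% confidence intervals from limma; filled points have an adjusted p under 0.05 and dotted lines mark the fold threshold. Cd300a lies at -2.23 in WT and -2.27 in KO, Cd47 at 2.05 and 2.13, and the intervals of Siglec1, Cd33 and Trem2 include 0.

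The comparison of genotypes asks whether these genes differed between KO and WT macrophages. It cannot separate deletion of Rasgef1b from the Cre transgene or the source of the mice. No receptor gene passed both thresholds in untreated macrophages (0 of 9 tested, beside 0.193% of 12461 genes) or in LPS-treated macrophages (0 of 10, beside 0.232% of 12504 genes). At an unadjusted p under 0.05, Siglec1, Cd33 and Pilra differed in untreated macrophages and Siglec1 after LPS, and edgeR and DESeq2 on the recovered reads called no receptor gene by both thresholds in either comparison.

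Siglec1 had the largest genotype difference of the receptor genes tested. In untreated macrophages WT libraries held 4394 to 8415 normalized counts and KO libraries 1481 to 4478, overlapping by 1 library, KO replicate 1. The difference was -1.23 (SE 0.38) on the log2 scale (adjusted p = 0.251, limma), and it passed both thresholds once that library was left out (-1.66, adjusted p = 0.0436, limma). Without untreated KO replicate 2, the lowest of these libraries, the difference was -0.87, short of the fold threshold. After LPS, WT libraries held 5289 to 5492 and KO libraries 2212 to 3725 normalized counts, without overlap. Here the difference of -0.97 (SE 0.15), 1.95-fold lower in KO, passed the adjusted p (0.0214, limma) but not the fold threshold; 1 of 10 receptor genes did so, beside 0.312% of all genes lower at that p and 0.504% higher. Without KO LPS replicate 1 it passed both (-1.19, adjusted p = 5.06e-05), and without any 1 of the WT LPS libraries or KO LPS replicate 3 the adjusted p was 0.0613 to 0.122. With all 12 libraries in the fit it was 0.213 and with a variance without trend 0.211. Under the other alternatives that kept all 6 libraries it was 3.40e-08 (DESeq2) to 0.0347 (a mean of at least 50), with 0.0196 by edgeR and 0.00929 with the replicate block. The summed macrophage markers tended lower in KO, at 214395 to 266636 against 259917 to 320652 normalized counts in untreated libraries, with overlap. In LPS-treated libraries they were at 251155 to 314629 against 314667 to 364637. Such a sum follows its most abundant genes and does not show that each marker was lower. The 5 T cell markers, nearly all from Cd4, summed to 106 to 142 in KO against 168 to 245 normalized counts in WT untreated libraries and to 83.5 to 99.4 against 151 to 175 after LPS, where Cd4 itself was lower in KO by adjusted p (0.0335, limma). The part of these lists in the result was not tested.

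Pilra and Pilrb1 were lower and Cd33 higher in untreated KO macrophages by values that did not pass the adjusted test. Pilra ranged over 181 to 236 normalized counts in WT and 135 to 172 in KO, without overlap, a difference of -0.50 (SE 0.13) on the log2 scale (adjusted p = 0.182, limma). Pilrb1 differed by -0.70 (SE 0.36) (adjusted p = 0.545) and Cd33 by 0.49 (SE 0.17) (adjusted p = 0.343, and 0.0407 by DESeq2), and KO replicate 1 was the highest KO library of both. Siglece was under the level needed for testing. The remaining 5 genes differed between genotypes by -0.046 to 0.11 on the log2 scale in untreated macrophages; the widest of their 95% confidence intervals, for Lilrb4a, was -0.22 to 0.17. After LPS, the 9 genes other than Siglec1 differed by -0.080 to 0.15, with adjusted p of 0.801 or more by limma, and Siglece, with an interval of -1.35 to 1.19, was bounded least.

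**Figure D4:**
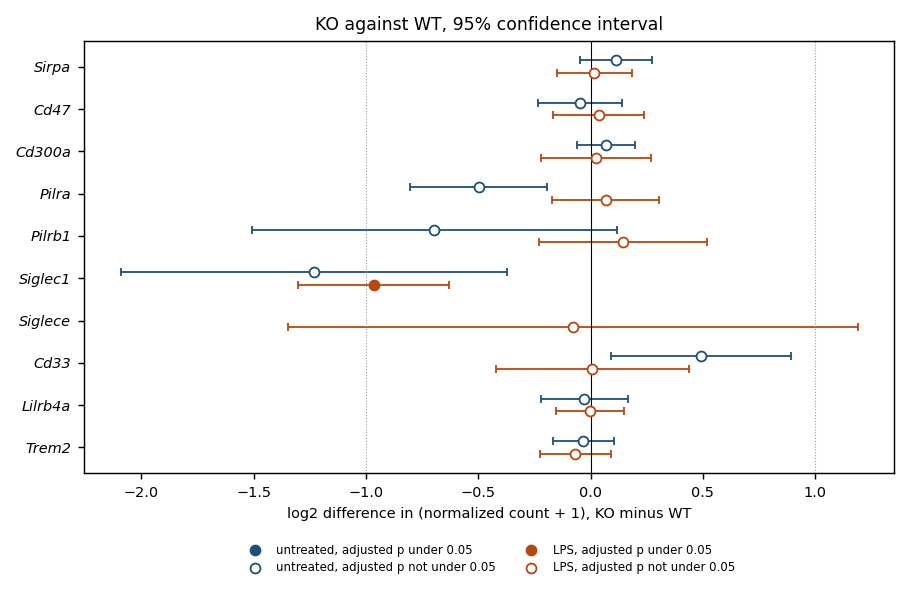
Difference between KO and WT on the log2(normalized count + 1) scale (x axis) for the receptor genes in untreated and LPS-treated macrophages, with 95% confidence intervals from limma; the filled point has an adjusted p under 0.05, and Siglece is shown after LPS only. Siglec1 lies at -1.23 untreated and -0.97 after LPS, while Sirpa, Cd47, Cd300a, Lilrb4a and Trem2 lie close to 0 in both.

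Whether the LPS response differed between genotypes was tested as an interaction over all 12 libraries. No receptor gene passed (0 of 10, adjusted p of 0.999 in limma), beside 0.00787% of 12711 genes, that is 1 gene. With the replicate number as a block within each genotype, 6 genes and no receptor gene passed. The LPS response was larger in KO by 0.56 (SE 0.18) for Pilra (unadjusted p = 0.00876 in limma) and by 0.84 (SE 0.40) for Pilrb1 (unadjusted p = 0.0563) on the log2 scale, and the former was the only receptor gene with an unadjusted p under 0.05. The 95% confidence intervals of the interaction were -0.20 to 0.36 for Cd47, -0.33 to 0.24 for Cd300a and -0.29 to 0.10 for Sirpa.

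Related genes were taken in 10 lists with 103 genes in the table, of which 92 were tested for LPS in WT; 26 passed both thresholds as higher and 14 as lower, and in KO 26 and 13. The counts of each list stand beside 17.1% higher and 16.9% lower over all genes tested in WT, and 17.3% and 16.6% in KO. Among the paralogs of the receptor families, 4 of 23 tested rose and 4 fell in each genotype, near those shares. Of 10 CD300 genes tested, 3 fell and 1 rose in both genotypes, with a list median of -0.57 in WT beside -0.017 over all genes. Cd300lb, a DAP12-coupled activating receptor, fell by 5.25 (SE 0.077) on the log2 scale, from 6745, 6606 and 6583 to 179, 189.7 and 156 normalized counts in WT libraries. Cd300ld2 was at -3.35 and the inhibitory Cd300lf at -1.42, while Cd300e rose by 1.502. Of the other families Pilrb2 rose by 1.44, Pirb, an ITIM receptor for MHC class I, by 1.36 and Treml2 by 1.76, Treml1 fell by 2.27, and none of 3 Siglec and 3 SIRP paralogs tested passed both thresholds in either genotype.

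Of 14 other inhibitory and paired receptors tested, 7 rose and 1 fell in each genotype (list median 0.89 in WT). Slamf7 rose by 3.96, Pecam1 by 3.76, Slamf8 by 2.53 and Fcgr2b, the inhibitory Fc receptor, by 2.15 on the log2 scale in WT. Of 15 adaptors and kinases, 7 rose and 1 fell in each genotype (list median 0.91 in WT). Src-family kinases, which phosphorylate ITIMs, were among them: Src rose by 5.64, Fgr by 2.54 and Lyn by 2.41. Tyrobp, which encodes DAP12, differed by 0.13 (SE 0.055) and did not pass (adjusted p = 0.0594, limma).

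Of 15 inhibitory phosphatases and adaptors, 3 rose and 5 fell in WT, and 3 and 4 in KO (list median -0.62 in WT). Within this list the phosphatases recruited by ITIMs went apart. Inpp5d (SHIP-1) fell by 2.62 (SE 0.089) on the log2 scale, from 4012, 4105 and 4391 to 745, 707 and 587 normalized counts in WT libraries. Ptpn6 (SHP-1) was outside the 4 largest changes of its list and is named after its values were seen: it rose by 1.22 (SE 0.072), from 3657, 3451 and 3518 to 7518, 8242 and 9137. Ptpn11 (SHP-2), named in the same way, was 1.78-fold higher in WT and 1.70-fold higher in KO, short of the fold threshold. Socs3, a cytokine-signalling inhibitor, rose by 9.89, and the adaptor Sla and the phosphatase gene Ptpn22 fell by 1.75 and by 1.69.

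Of 25 ligands and enzymes of ligand synthesis tested, 5 rose and 3 fell in each genotype (list median -0.24 in WT), near the shares over all genes. Cd200, the ligand of the inhibitory receptor CD200R, rose by 4.54 on the log2 scale in WT. The sialyltransferases, which make Siglec and PILR ligands, went in both directions: St3gal1 rose by 2.24 and St3gal3 by 2.169, and St6gal1 fell by 2.44. Between genotypes no gene of these lists passed both thresholds by limma or edgeR (0 of 91 tested in either treatment), and after LPS none did by DESeq2. In untreated macrophages DESeq2 called 2, named after their values were seen. Cd200 was at 13.8, 13.9 and 16.7 normalized counts in WT and 33.2, 37.6 and 32.2 in KO libraries, without overlap, a difference of 1.16 (SE 0.20) by limma (adjusted p = 0.0545) and 1.22 by DESeq2 (adjusted p = 0.0214), and with all 12 libraries in the limma fit the adjusted p was 0.00177. Cmah, the hydroxylase that makes the sialic acid Neu5Gc, was at 24.2, 23.1 and 51.0 in WT and 132, 60.7 and 47.3 in KO libraries, with overlap, a difference of 1.22 (SE 0.41) by limma (adjusted p = 0.311) and 1.30 by DESeq2 (adjusted p = 0.0346). By adjusted p alone, Fcgr2b was lower in untreated KO macrophages (-0.93, adjusted p = 0.0427, limma), beside 0.281% of all genes. After LPS, St3gal6 was lower (-0.79, adjusted p = 0.0392) and Pag1 higher (0.69, adjusted p = 0.0457).

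**Figure D5:**
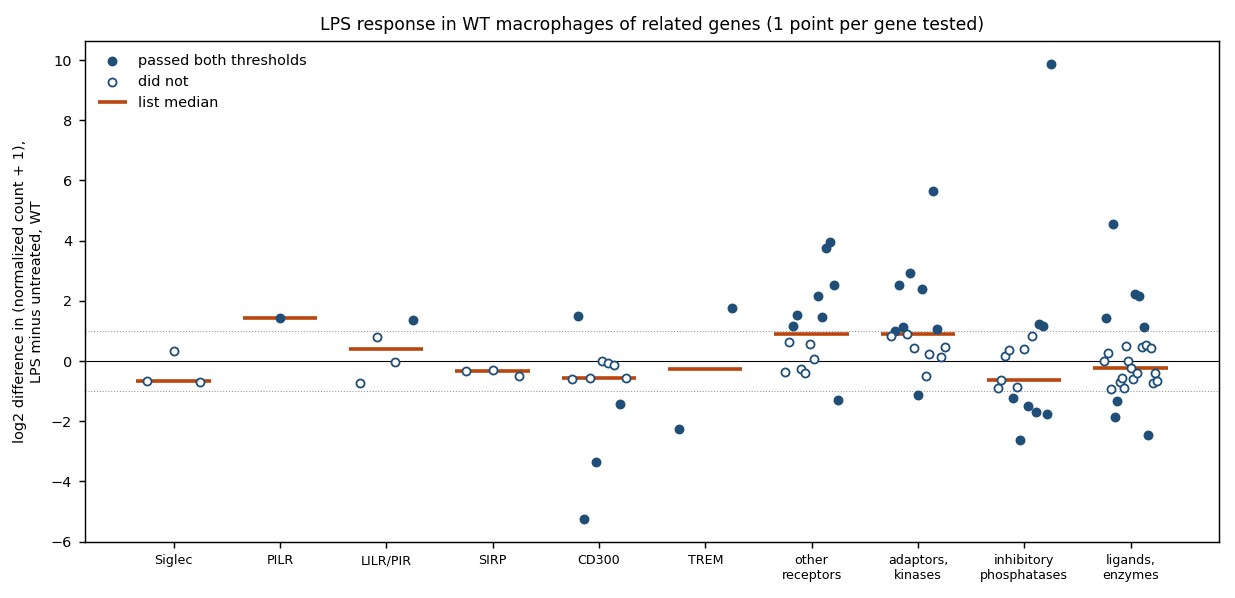
LPS difference in WT macrophages on the log2(normalized count + 1) scale (y axis) for tested genes of the 10 related lists (x axis); each point is a gene, filled where it passed both thresholds, and horizontal bars are list medians. Socs3 is the highest point at 9.89 and Cd300lb the lowest at -5.25; the CD300 list has a median of -0.57 and the adaptors and kinases one of 0.91.

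The genes whose pattern over the 12 libraries was most like those of the 3 receptor genes with the largest LPS difference in WT were found by Pearson's r of log2(normalized count + 1), over 12659 genes. For Cd300a they were Sash3, Cdk20 and Kdsr (r = 0.998, 0.997 and 0.997). For Cd47 they were Vcpip1, Ppm1k and Mier3 (r = 0.999 for each), and for Pilrb1 they were Cxcl1, Ifi208 and Gm46224 (r = 0.987, 0.986 and 0.986). The libraries share the step between untreated and LPS-treated macrophages, which sets most of each r.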

How the data were processed

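The members and gene lists were chosen with earlier results of these data known. Per the labels and methods, the authors used Trimmomatic (0.39) for trimming, STAR (2.7.4a) for alignment of the read pairs to GRCm38 and featureCounts (Subread 2.0.1) for gene counts, and deposited values divided by DESeq2 (1.32.0) size factors. The deposited signal values are thus normalized counts. Whole reads were recovered for 100% of values (tolerance 1e-06). Since the values are not counts, limma (3.58.1) with a variance trend was fitted to log2(normalized count + 1) for genes with a mean of at least 10, 2 groups of 3 at a time, with adjustment over all genes tested; the interaction used 12 libraries. edgeR (4.0.16) and DESeq2 (1.42.0) on recovered reads were alternatives. Depth was 19316691 to 24977356 reads per library. Methods describe replicates as independent RNA samples of cultures; animals per culture are not given in the sources used here. The authors compared samples as unpaired, as the fits here did unless a block is named. Same-numbered untreated and LPS-treated libraries deviated together (r = 0.17 to 0.33, every pair over 0.1). Different-numbered ones of a genotype were at r = -0.244 to 0.0107, so numbers were taken as paired within a genotype. WT replicate 1 and KO replicate 2 after LPS reached r = 0.268, so r of this size alone does not show a pair. Gene positions and lengths came from GENCODE vM21, which holds 55141 of the gene models, and promoters from RefSeq, with entries for 7 of 10 genes and none used for Siglec1, Lilrb4a and Sirpa. Pira1, Pira6 and Pira12 were not analysed here. Beside the 10 receptor genes, the text names up to 4 genes per list with the largest LPS difference in WT among those past both thresholds, and those past the adjusted p between genotypes; a gene that this rule would name is not reported here. Fits were tested on simulated data.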

Additional observations from a re-analysis of the deposited data

Results flagged for a closer look

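Cd33 stood out because its direction with LPS differed between genotypes in every pair of same-numbered libraries: the log2 difference was 0.27, 0.17 and 0.35 in the 3 WT pairs and -0.25, -0.41 and -0.013 in the 3 KO pairs. The interaction was -0.49 (SE 0.31) on the log2 scale (95% confidence interval -1.15 to 0.18) and did not pass the test, with an unadjusted p of 0.137 and an adjusted p of 0.999 by limma, and of 0.324 with the replicate number as a block within genotype. Single values standing apart within groups of 3 libraries were not searched for gene by gene. Over all genes, replicate pairs were compared on recovered reads by chi-square per degree of freedom. Untreated KO replicate 2 gave 140 and 125 against the other untreated KO libraries, beside 4.50 to 24.1 in all other pairs. It was the lowest untreated KO library for every receptor gene but Sirpa, Cd47 and Trem2. Without it, 11 genes were called between genotypes in untreated macrophages, against 24.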

How the results depend on the processing

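The LPS calls of Cd47 and Cd300a held in both genotypes under every alternative run, those of Pilrb1 under every one that tested it, and that of Pilra under all but total scaling in WT (0.94). With a mean of at least 50 in place of 10, Pilrb1 and Siglece were not tested, which left 3 of the 10 receptor genes called in either genotype. Scaling turned some small LPS differences negative: Cd33 in WT to -0.057 with upper quartile scaling and -0.46 with total scaling; Lilrb4a in WT to -0.0079, -0.69 with quantile normalization and -0.41, and in KO to -0.63 and -0.35; Siglec1 in KO to -0.16, -0.46 and -0.53. The same scalings turned the KO minus WT difference of Lilrb4a after LPS to 0.013, 0.012 and 0.026, and the interaction of Trem2 to 0.0035 with quantile normalization and 0.0024 with total scaling. Total scaling, the block within genotype and the coding length were added after the data were seen.

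Between genotypes in untreated macrophages, 24 genes were called, against 42 with no filter, 11 with a mean of at least 50, 50 with DESeq2, 2 without a variance trend and 4 to 26 with 1 library left out, which called 0 to 1 receptor genes. After LPS, 29 were called, against 44 with DESeq2, 5 without a variance trend and 11 to 42 with 1 library left out (0 to 1 receptor genes). The interaction called 1 gene, against 23 with DESeq2 and 1 to 3 with 1 library left out; the cause of these shifts was not tested. Libraries of WT and KO share only a number (same-number r of -0.20 to 0.24): the replicate block gave 44 genes and 1 receptor gene, Siglec1 (adjusted p = 0.0101, limma), in untreated macrophages. It gave 3 genes in the interaction, and 6 as a block within genotype. In the LPS comparisons, where numbers were taken as paired, the replicate block gave 4299 and 4329 genes against 4294 and 4309 and changed no receptor call by both thresholds; by adjusted p alone, Cd33 passed in both genotypes and Trem2 in KO.

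Leaving out 1 library turned the sign of small differences, all short of the thresholds. For KO minus WT after LPS the ranges were -0.095 to 0.12 for Cd300a, -0.19 to 0.25 for Cd33, -0.036 to 0.11 for Cd47, -0.027 to 0.041 for Lilrb4a, -0.051 to 0.15 for Pilra, -0.77 to 0.54 for Siglece and -0.027 to 0.065 for Sirpa. Untreated they were -0.14 to 0.0097 for Cd47, -0.12 to 0.057 for Lilrb4a and -0.062 to 0.0012 for Trem2. The LPS differences were -0.42 to 0.020 for Cd33 and -0.21 to 0.59 for Siglec1 in KO, and -0.30 to 0.17 for Siglec1 in WT. The interactions were -0.16 to 0.051 for Cd300a, -0.060 to 0.11 for Lilrb4a, -0.10 to 0.70 for Siglec1, -0.36 to 0.95 for Siglece and -0.086 to 0.0036 for Trem2. Of 580 values under the other alternatives of the receptor genes' differences, 553 kept direction and call. Many could not change direction. Other filters, all 12 libraries, the replicate blocks and a variance without trend leave the limma difference itself as it was, so only the call could move. With 3 libraries per group, depth limits Siglece (3 to 41 reads) most.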

Other observations

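Siglec1 varied more among untreated libraries than most receptor genes, and the genes that deviated from their group means most like it were looked up after its values were seen. Over the 12 libraries and 12659 genes, the nearest were Ifi27l2a (r = 0.978), Gm43197 (0.974), Trim21 (0.974), Clcn1 (0.972), Gbp4 (0.971), Ms4a4c (0.967), Ifitm3 (0.962), Dhx9 (0.960), Slfn2 (0.959) and Il15ra (0.958), given as a description of libraries that share their group means. Several of these, such as Ifi27l2a, Trim21, Gbp4, Ifitm3 and Slfn2, are known to be induced by interferons. Ifitm3 was at 9388, 5981 and 4933 normalized counts in untreated WT replicates 1, 2 and 3 and at 7679.8, 3239 and 3639 in untreated KO ones, with replicate 1 the highest in both genotypes, as for Siglec1. In untreated libraries both Ifitm3 and Siglec1 overlapped between genotypes. After LPS, Ifitm3 overlapped, at 21256 to 23534 normalized counts in WT and 17664 to 24528 in KO, and Siglec1 did not. The cause of the shared deviations was not tested.

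By level over the 12 libraries, also looked up after the data were seen, the genes most like Siglec1 were Pisd-ps2 (r = 0.901), Gm15446 (0.862) and BC064078 (0.860). Mean normalized counts in untreated WT and KO libraries were 20.8 and 11.7 for Pisd-ps2 and 23.8 and 6.54 for BC064078. The libraries share this step between genotypes, which contributes to each r. Gm15446 was at 100.3 to 104 normalized counts in untreated WT libraries and at 0 to 5.01 in untreated KO ones.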
